A study of Mus musculus with 16 samples.

Results

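The genes described here are 34 autosomal imprinted genes, taken as a fixed list of names that used no measured value. All 34 had a transcription start site (TSS) in the authors' annotation, 45 TSS positions in all, among 21365 genes with a TSS. For 18 of them the copy from the father is the one known to be expressed in somatic tissue, and for 16 the copy from the mother. Open chromatin had been profiled by ATAC-seq, in which the Tn5 transposase cuts accessible DNA, in germ cells purified from the testis of C57BL/6 mice. At postnatal day 7 (P7) the cells were Thy1+ spermatogonia (Thy1), a fraction with the stem cells, and differentiating spermatogonia positive for c-Kit (cKit). Pachytene spermatocytes (PS), cells in meiotic prophase, and round spermatids (RS), haploid cells, came from adult mice, so stage and age cannot be told apart between P7 and adult. A reaction held 500000 cells for Thy1 and cKit, 250000 for PS and 1000000 for RS. Stage and cell number thus cannot be told apart either, except between Thy1 and cKit. Each stage was taken from wild-type mice and from Scml2 knockout mice (Scml2-KO), with 2 libraries per group and 16 in all; SCML2 is a Polycomb-related protein of the male germ line. How the knockout allele was made, and whether replicates came from separate animals, is not given in the sources used here, so the p-values rest on how much these libraries vary, which may be technical variation alone.

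At an imprinted gene the copies inherited from the mother and from the father carry different DNA methylation at a control region, and in the embryo and adult only the copy from a given parent is expressed. The marks are erased and set anew in the germ line. In the male germ line the control regions of H19 and Igf2 and of Dlk1 and Meg3 gain methylation before birth, whereas the promoters of Kcnq1ot1, Snrpn, Peg3, Peg10, Mest, Airn, Plagl1 and others, which gain methylation in the oocyte, stay without it. The mice were inbred and the peak lists do not separate the parental copies, so the values below are for both copies together.

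The measurement is whether a library has a peak that overlaps 1 kb on either side of a TSS, called a promoter peak. Where a library had no such peak, nothing there reached the caller's threshold, which is not a measure of closed chromatin. The fold enrichment printed for a peak is the authors' value, signal over the background of its list; it is not scaled between libraries and serves here as a description. Lists held 17813 to 164060 peaks, replicate 1 was the longer list of the pair in all 8 groups, and the number of reads is unknown. The share of all genes with a promoter peak ranged from 50.8% to 74.2% in P7 and from 55.0% to 69.2% in adult libraries. In these bulk samples, fewer cells of a type and less open chromatin per cell cannot be told apart. The Scml2 promoter had a peak in 4 of 4 wild-type and 3 of 4 Scml2-KO libraries at P7, and in 2 of 4 and 0 of 4 in adult cells; with the deleted part of the gene not given, this does not check the labels.

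Of the 34 imprinted genes, 23 (67.6%) had a promoter peak in 12 or more libraries, beside 54.8% of all genes. In all 16 libraries 11 had one (32.4%, beside 39.1% of all genes; Igf2r, Kcnq1ot1, Cdkn1c, Peg3, Peg10, Sgce, Plagl1, Gnas, Nespas, Impact and Ube3a), and in none 2 (Rian and Mirg; 5.88%, beside 15%). The median was 13.5 libraries, against 13 over all genes. The share of the 34 with a promoter peak was 80.5% ± 14.2 in P7 and 71.3% ± 11.8 in adult libraries (SD, n = 8 each), beside 66.4% ± 7.73 and 60.4% ± 5.89 of all genes. By stage it was 89.0% ± 5.02 in Thy1, 72.1% ± 16 in cKit, 77.2% ± 6.52 in PS and 65.4% ± 13.9 in RS (SD, n = 4 each). No test was made of these shares, since the genes were chosen as a list.

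By the copy known to be expressed, the shares were as follows, again with no test. Paternally expressed genes stood at 92.4% ± 12.9 in P7 and 74.3% ± 9.36 in adult libraries, and all 18 had a peak in both Thy1 wild-type libraries and in Thy1 Scml2-KO replicate 1. Maternally expressed genes stood at 67.2% ± 17.6 and 68.0% ± 16.2 (SD, n = 8 each). Of the paternally expressed genes 8 had peaks in more P7 than adult libraries and 1 the reverse; of the maternally expressed genes 5 and 4 did. Over the 34 genes these were 38.2% and 14.7%, beside 27.0% and 16.1% of all genes. The 14 genes with a promoter at a control region methylated in the oocyte stood at 92.9% ± 9.35 and 89.3% ± 9.35 (SD, n = 8 each). A peak at any start of a gene counted, so these shares are not those of the control regions alone. With the same number of peaks kept in every library, paternally expressed genes stood at 67.4% ± 5.51 and 50.0% ± 8.4 and maternally expressed genes at 36.7% ± 6.19 and 50.0% ± 17 (SD, n = 8 each), so the gap for the maternally expressed genes was wider at equal length. All genes then stood at 50.2% ± 2.15 in P7 and 48.2% ± 2.96 in adult libraries (SD, n = 8 each). Between P7 and adult libraries the maternally expressed genes differed by less than their spread on the full lists, and the order turned in wild type alone (68.8% and 62.5%) and on leaving out any 1 of 7 libraries.

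**Figure D1:**
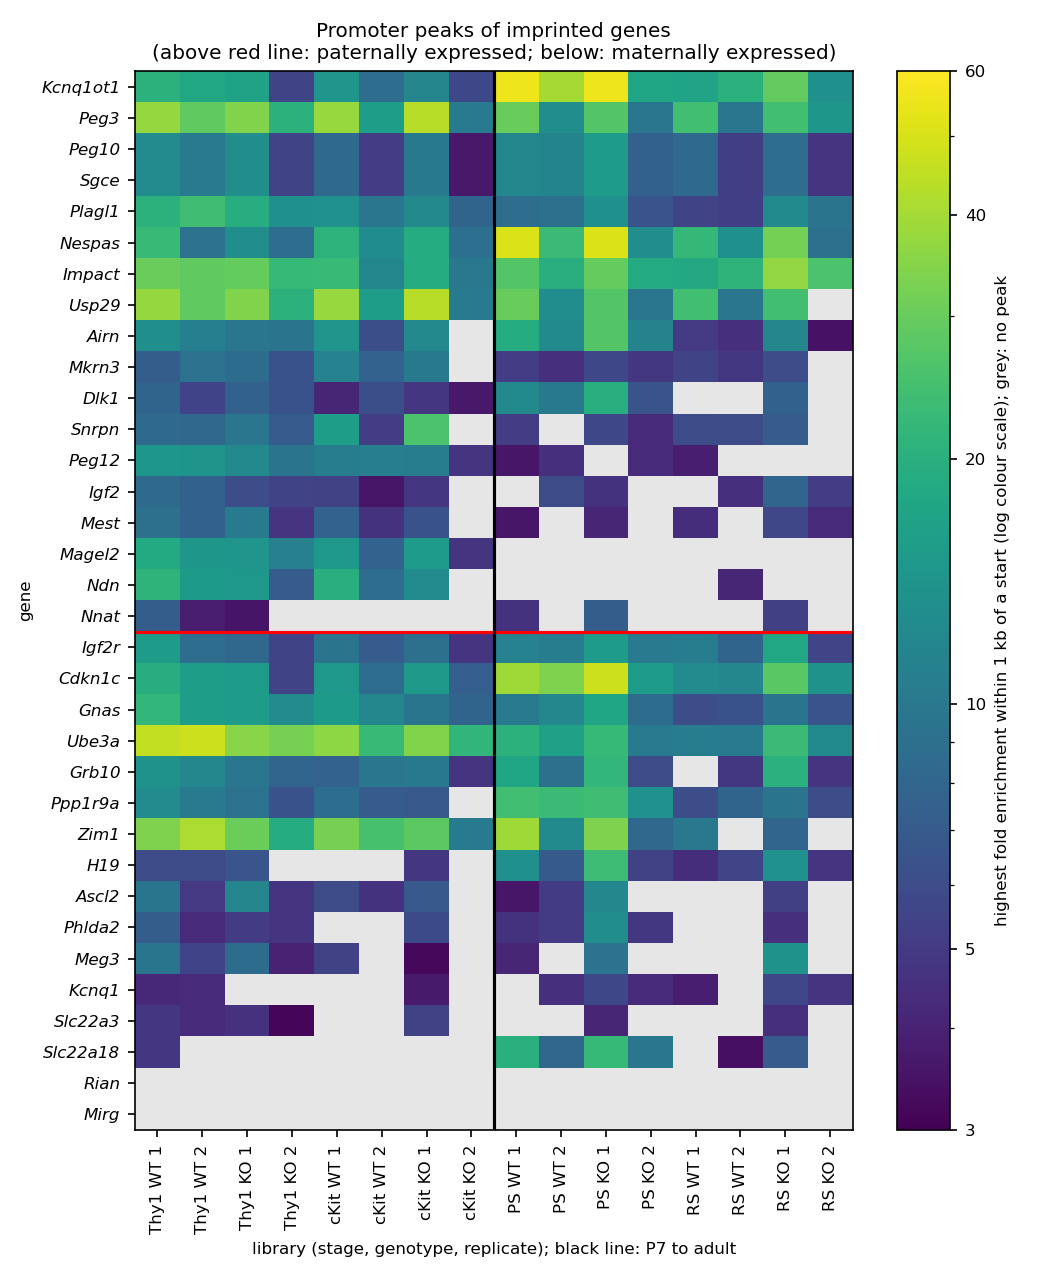
Highest fold enrichment of a promoter peak (colour, log scale) for each of the 34 imprinted genes (rows) in each of the 16 libraries (columns); grey marks no peak, the red line parts paternally from maternally expressed genes and the black line parts P7 from adult libraries. Magel2 has peaks in 8 P7 and 0 adult libraries, Slc22a18 is filled mainly in PS, and the column of cKit Scml2-KO replicate 2, the shortest list, holds the most grey at P7.

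**Figure D2:**
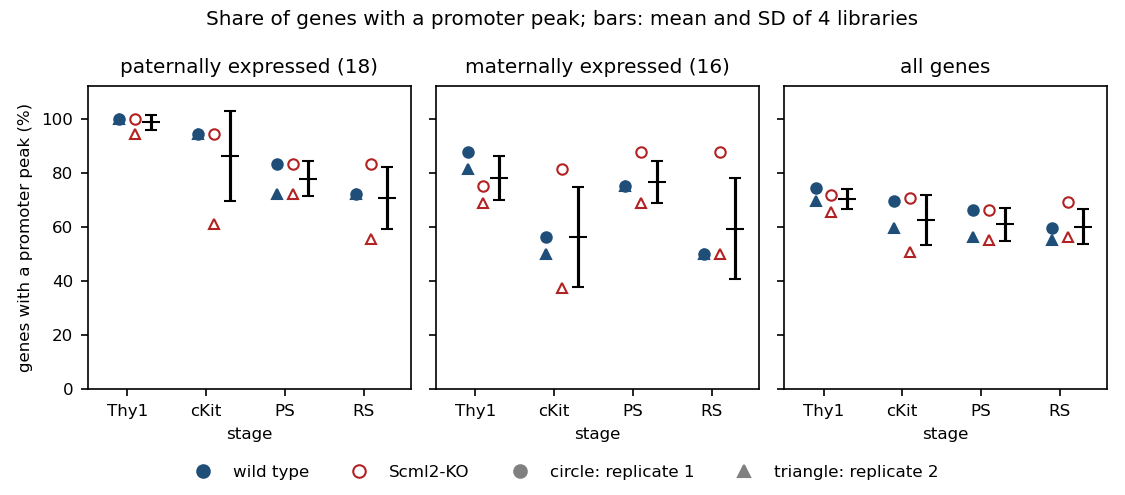
Percentage of genes with a promoter peak (vertical axis) by stage for 18 paternally expressed genes, 16 maternally expressed genes and all genes. Each point is a library, and bars give the mean and SD of the 4 libraries of a stage; paternally expressed genes stand at 98.6% ± 2.78 in Thy1 and at 70.8% ± 11.5 in RS.

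Which imprinted promoters differ between P7 spermatogonia and adult germ cells was tested by Fisher's exact test for each gene with a peak in 5 to 11 libraries, with Benjamini-Hochberg adjustment over all genes tested. Of the 34 genes 9 could be tested. Magel2 and Ndn were called higher in P7, and 0 were called higher in adult cells, where the unadjusted test gave 1 (Slc22a18). Of all 3914 genes tested, 24.8% were called higher in P7 and 8.48% higher in adult cells, so 2 of 9 and 0 of 9 lie near the background. Both genes lie in the cluster on chromosome 7 that corresponds to the human Prader-Willi region, whose protein-coding genes are expressed from the father's copy.

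Magel2 (TSS at 62376979, plus strand, mm10) encodes a MAGE family protein that takes part in ubiquitination and recycling of membrane proteins. Its promoter peaks had fold enrichments of 18.7, 14.7, 14.3 and 11.1 in Thy1 and 14.8, 7.71, 15.4 and 4.72 in cKit, in the order wild type 1 and 2, Scml2-KO 1 and 2, which is kept throughout. No PS and no RS library had a peak there, so the 8 P7 and 8 adult libraries did not overlap. The adjusted p was 0.00356 by Fisher's exact test (unadjusted 0.000155, the smallest that 8 against 8 libraries allow), and 0.534% of all genes had the same pattern of 8 and 0. Ndn (TSS at 62348277, plus strand) encodes necdin, a MAGE family protein of neurons and progenitor cells. Its peaks stood at 21.1, 15.3, 14.8 and 7.15 in Thy1 and at 19.6, 8.74 and 12.8 in cKit with none in cKit Scml2-KO replicate 2. The single adult peak was in RS wild type replicate 2 (4.13), and the adjusted p was 0.0304. Among genes with a promoter peak in the same library, both stood near the middle, with a median percentile of fold enrichment over the P7 libraries of 49.8 for Magel2 and 50.4 for Ndn. Ndn was not called when genes open in any number of libraries were tested (adjusted p = 0.141, Fisher's exact test).

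Promoters of somatic marker genes also had peaks in more P7 than adult libraries, as did Magel2 and Ndn. The share of 12 Sertoli cell markers with a promoter peak ranged from 41.7% to 91.7% in P7 and from 8.33% to 50.0% in adult libraries. For 10 peritubular and smooth muscle markers the ranges were 50.0% to 100% and 10.0% to 70.0%. They were 20% to 80% and 0% to 40% for 10 endothelial markers. For 10 Leydig cell markers they were 10% to 60% and 10% to 40%, and for 10 immune markers 0% to 40% and 0% to 20%. Called higher in P7 were 4 of 8 Sertoli markers tested, 2 of 9 peritubular, 3 of 4 endothelial, 1 of 4 Leydig and 0 of 2 immune. Of all genes tested 24.8% were called higher in P7, so the peritubular and Leydig counts lie near the background. In no library did Amhr2, Pecam1, Tie1, Cyp11a1, Hsd3b1, Ptprc, Emr1 and Itgam have a promoter peak, whereas Wt1, Gata4, Acta2 and Cdh5 had one in all 8 P7 libraries. The part of these cells in the results for Magel2, Ndn and the other genes higher in P7 was not tested. Of 16 spermatogonia markers 6 were tested and 0 called. Of 13 pachytene spermatocyte markers 5 were tested and 4 called higher in adult cells. For 14 round spermatid markers these numbers were 12 and 9, beside 8.48% of all genes tested. The spermatocyte markers stood at 99.0% ± 2.72 (SD, n = 8) in adult libraries, against 51.9% ± 16.8 in P7.

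Peg12 (TSS at 62464510, minus strand), which encodes a Frat family protein that binds GSK3, lay on the same side. Its peaks stood at 14.5, 14.2, 12.2 and 9.54 in Thy1 and at 10.7, 10.8, 10.7 and 4.72 in cKit. In PS they were 3.61, 4.52 and 4.35, with none in Scml2-KO replicate 1, and in RS the only one was 3.88 in wild type replicate 1. Every P7 value was above every adult value, but a peak in 12 libraries kept Peg12 out of the test. Mkrn3 (TSS at 62420139, minus strand), a makorin RING-finger protein known for holding back puberty, had peaks in 7 P7 and 7 adult libraries, from 6.36 to 11.3 in P7 and from 4.52 to 6.05 in adult cells. It lacked a peak in cKit and RS Scml2-KO replicate 2. With the same number of peaks kept in every library, 4 of the 8 imprinted genes then tested were called higher in P7, against 36.5% of all genes tested. These were Magel2 and Peg12 (8 and 0 libraries, adjusted p = 0.00132 each, Fisher's exact test), Ndn (7 and 0, 0.00546) and Mkrn3 (5 and 0, 0.0433).

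Snrpn, a splicing protein whose promoter is at the imprinting centre of this cluster, had peaks at both ages, as Mkrn3 did. It had them in 7 P7 and 6 adult libraries at the TSS at 60005156 and none at its upstream starts at 60097608 and 60140219. The values were 8.44, 8.18, 9.68 and 7.15 in Thy1, 16, 5.14 and 25.6 in cKit, 5.16, 5.72 and 4.35 in PS, and 6.09, 6.01 and 7.19 in RS. Ube3a, the ubiquitin ligase of Angelman syndrome, which is expressed from both copies outside neurons, had a peak in every library. It ranged from 21.5 to 48.0 in P7 and from 10.1 to 23.1 in adult libraries, and its median percentile within a library was 97.5 in P7 and 66.9 in adult cells.

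**Figure D3:**
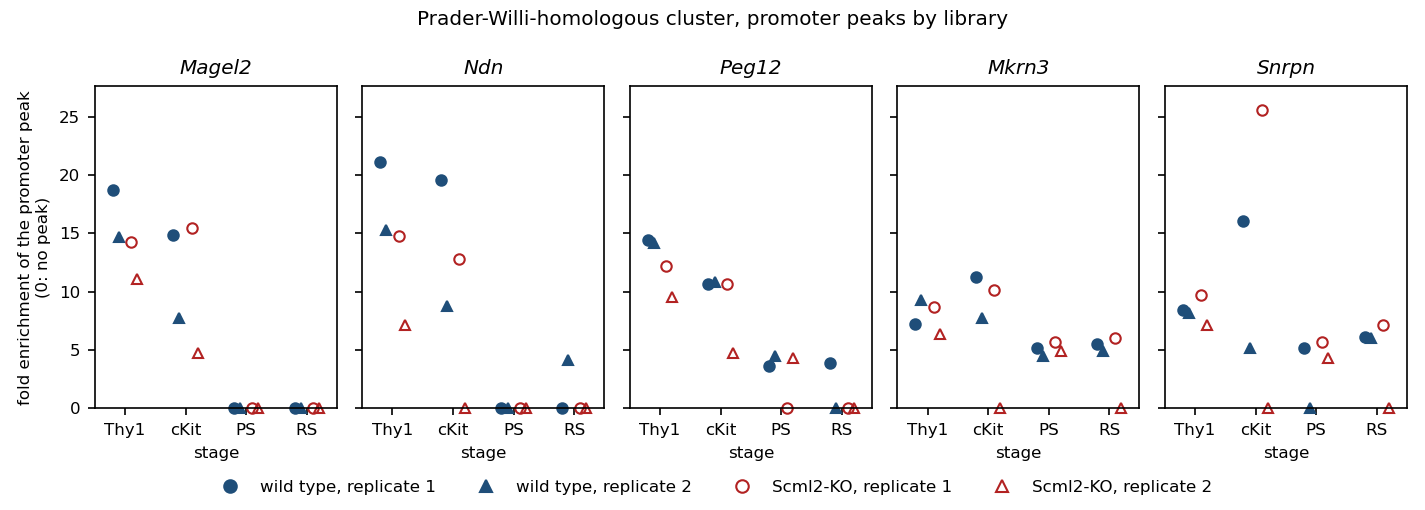
Fold enrichment of the promoter peak (vertical axis, 0 where there was no peak) of 5 genes of the Prader-Willi-homologous cluster by stage. Each point is a library, filled blue for wild type and open red for Scml2-KO, with circles for replicate 1 and triangles for replicate 2; Magel2 lies at 0 in all PS and RS libraries, while Mkrn3 and Snrpn keep peaks there.

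The sequences before the starts of Ndn, Magel2, Peg12 and Mkrn3 are shown because these neighbours lie within a short stretch and differ in how many adult libraries had a peak. They are the 250 bases before the RefSeq start in GRCm38.p6, at chr7:62348027-62348276 (plus strand), chr7:62376729-62376978 (plus), chr7:62464511-62464760 (minus) and chr7:62420154-62420403 (minus). Capitals mark matches on either strand to GCATGCG (the core bound by NRF1), ATGGCGG (YY1), CCAAT (the CCAAT box) or GGGCGG (the GC box), and TGCCGC (ZFP57) was also searched.
Ndn: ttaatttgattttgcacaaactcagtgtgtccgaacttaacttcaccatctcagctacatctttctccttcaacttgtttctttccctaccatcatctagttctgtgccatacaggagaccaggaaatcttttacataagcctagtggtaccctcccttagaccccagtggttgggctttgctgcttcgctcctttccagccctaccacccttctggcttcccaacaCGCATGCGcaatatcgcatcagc
Magel2: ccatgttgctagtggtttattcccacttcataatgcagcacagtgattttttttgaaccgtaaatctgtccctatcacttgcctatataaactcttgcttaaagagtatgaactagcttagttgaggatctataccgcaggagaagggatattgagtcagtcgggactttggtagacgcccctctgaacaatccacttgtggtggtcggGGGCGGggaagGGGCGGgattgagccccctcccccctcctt
Peg12: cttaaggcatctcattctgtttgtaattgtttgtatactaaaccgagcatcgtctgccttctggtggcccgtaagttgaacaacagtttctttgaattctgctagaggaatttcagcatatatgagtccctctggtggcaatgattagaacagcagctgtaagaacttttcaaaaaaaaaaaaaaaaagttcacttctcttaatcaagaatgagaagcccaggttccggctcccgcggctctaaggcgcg
Mkrn3: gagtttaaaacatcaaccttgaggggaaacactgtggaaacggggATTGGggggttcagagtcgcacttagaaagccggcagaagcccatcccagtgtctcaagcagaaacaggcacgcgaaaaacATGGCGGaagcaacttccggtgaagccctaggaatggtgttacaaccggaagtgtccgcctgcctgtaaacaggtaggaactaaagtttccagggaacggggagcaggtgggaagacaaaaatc
Ndn has a GCATGCG match on each strand, overlapping in the run CGCATGCG; 3.58% of all 32851 promoter windows of 300 bases (250 before to 50 after the start) hold this motif, as do Nnat and Snrpn. Magel2 has 2 GC boxes, a motif that 35.7% of windows hold at least once, and the Ndn window has 2 as well, outside the stretch shown. Mkrn3 has the YY1 motif (4.05% of windows) and a CCAAT box on the other strand (37.4%), and the stretch shown of Peg12 holds none of these motifs. Within 300 bases of an authors' TSS lay 36 windows of 27 of the 34 genes, some genes having several. Their median number of CpG was 14.5, from 0 to 48, against 7 over all windows. The ZFP57 motif (11.6% of all windows) was found in 9 of the 36, of Grb10, Igf2, Meg3, Mest, Nnat, Plagl1, Snrpn and Zim1.

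Farther along chromosome 7, in the domain that Kcnq1ot1 controls, the highest values were in PS. Kcnq1ot1 (TSS at 143296547, minus strand) is a long noncoding RNA that starts inside Kcnq1 and silences its neighbours on the father's copy. Its promoter peaks stood at 20.5, 18, 16.8 and 5.56 in Thy1, 14.2, 8.74, 11.7 and 5.77 in cKit, 55.7, 40.2, 55.6 and 17.4 in PS, and 17.2, 20.3, 29.1 and 13.4 in RS. In PS its median percentile among promoter peaks of the same library was 99.5, against 55.5 in Thy1, 46.3 in cKit and 85.0 in RS. Cdkn1c (TSS at 143461050, minus strand), the cell cycle inhibitor p57, had peaks in all 16 libraries too. It stood at 39.2, 33.7, 47.8 and 15.8 in PS, beside 5.56 to 19.3 in P7 and 12 to 28 in RS. Its median percentile was 97.1 in PS and 51.6 in P7. These ranks come from lists of different lengths and are a description.

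Slc22a18, a transporter of the same domain, had promoter peaks mainly in PS. It has starts at 143473755 and 143475116 (plus strand). PS libraries stood at 20.1, 8.04, 22.4 and 9.78, RS wild type 2 at 3.38 and RS Scml2-KO 1 at 7.19. The only P7 peak was in Thy1 wild type 1 (4.82). With 1 P7 and 6 adult libraries the adjusted p was 0.0720 by Fisher's exact test, and it was not called. It was called without Thy1 wild type 1 (0.0218), RS wild type 1 (0.0246) or RS Scml2-KO 2 (0.0226), and with a promoter window of 500 bp (0.0229) or 2 kb (0.0324). Over these and the other settings tried the adjusted p ran up to 0.521.

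The other genes of the domain had weak peaks. Phlda2, a pleckstrin homology protein that limits placental growth, had a peak in 5 P7 and 5 adult libraries, namely all Thy1 (4.36 to 7.24), all PS (4.65 to 13) and Scml2-KO replicate 1 of cKit (5.86) and RS (4.54). Kcnq1, a potassium channel, had one in 3 P7 libraries (3.73 to 4.36) and 6 adult libraries (3.88 to 5.72). Ascl2, a transcription factor of the trophoblast, had peaks in 7 P7 and 4 adult libraries, from 4.63 to 11.7 and from 3.61 to 12.

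**Figure D4:**
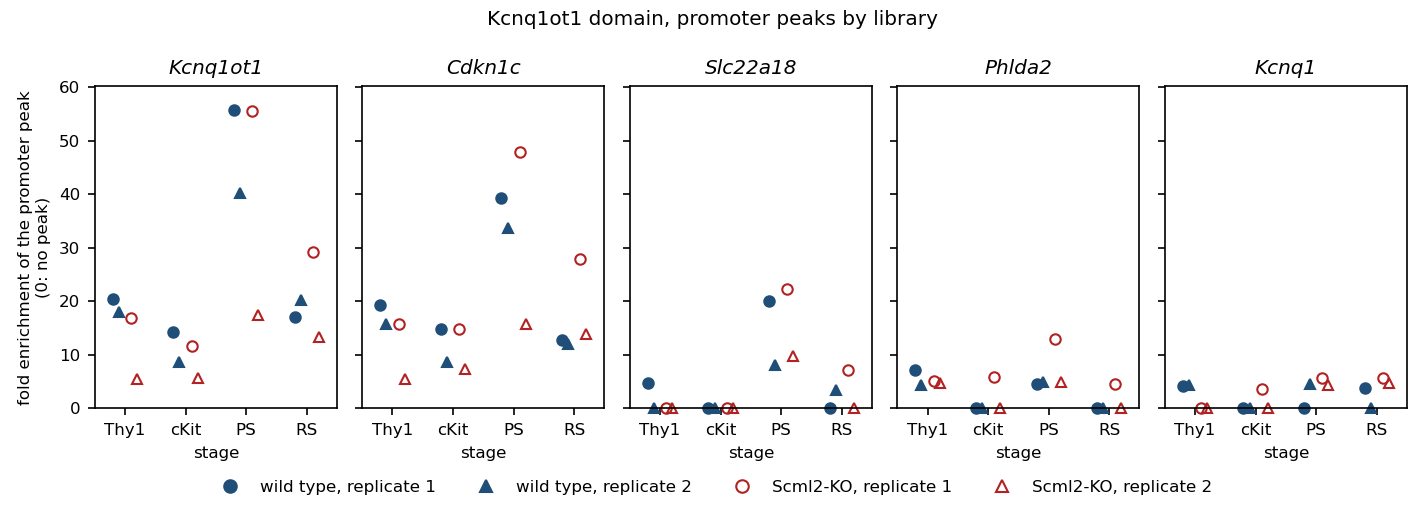
Fold enrichment of the promoter peak (vertical axis, 0 where there was no peak) of 5 genes of the Kcnq1ot1 domain by stage. Each point is a library, filled blue for wild type and open red for Scml2-KO, with circles for replicate 1 and triangles for replicate 2; Kcnq1ot1 and Cdkn1c have their highest values in PS, and Slc22a18 has peaks in all 4 PS libraries and in 0 of 4 cKit libraries.

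The sequences before the Kcnq1ot1 and Slc22a18 starts are shown because the former promoter was open in every library and the latter mainly in PS. They lie at chr7:143296548-143296797 (minus strand) and chr7:143473539-143473788 (plus), from RefSeq (GRCm38.p6), with the same motifs in capitals.
Kcnq1ot1: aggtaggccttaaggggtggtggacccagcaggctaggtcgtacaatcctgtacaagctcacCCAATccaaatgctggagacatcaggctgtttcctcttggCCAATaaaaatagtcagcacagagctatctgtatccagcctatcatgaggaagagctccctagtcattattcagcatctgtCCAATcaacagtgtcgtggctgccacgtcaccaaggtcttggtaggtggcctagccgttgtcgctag
Slc22a18: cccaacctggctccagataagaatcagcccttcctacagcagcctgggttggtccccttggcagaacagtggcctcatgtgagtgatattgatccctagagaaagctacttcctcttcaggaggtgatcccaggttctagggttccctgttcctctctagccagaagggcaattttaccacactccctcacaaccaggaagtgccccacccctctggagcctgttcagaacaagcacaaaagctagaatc
The Kcnq1ot1 window holds 3 CCAAT boxes, and 3.37% of all windows hold as many or more. The stretch before Slc22a18 holds none of the motifs and 0 CpG, and the Kcnq1ot1 stretch holds 5 CpG.

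At H19, a noncoding RNA expressed from the mother's copy (chromosome 7, TSS at 142578146, minus strand), the promoter had peaks in 4 P7 and all 8 adult libraries. Thy1 stood at 6.03, 6.00 and 6.62 with none in Scml2-KO 2, and cKit had 1 peak, at 4.79 in Scml2-KO 1. PS stood at 13.4, 7.04, 23.4 and 5.43, and RS at 4.43, 5.64, 13.6 and 4.76. With a peak in 12 libraries H19 was not tested. With equal list lengths it had peaks in 0 P7 and 6 adult libraries and was called higher in adult cells (adjusted p = 0.0175, Fisher's exact test), the only 1 of the 8 imprinted genes then tested, against 22.7% of all genes tested. Igf2, the growth factor that shares enhancers with H19, had a peak at 1 or more of its 3 starts in 7 P7 (3.6 to 8.44) and 5 adult libraries (4.51 to 7.95).

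The control region of H19 and Igf2, searched as 1 to 5 kb upstream of the H19 TSS, had peaks only in the longest Thy1 lists. They stood at 4.82 in Thy1 wild type 1, centred 2207 bp upstream, and at 4.08 and 3.57 in Thy1 Scml2-KO 1. In adult cells no peak lay within the window; a PS Scml2-KO 1 peak (3.64, centred 767 bp upstream) touched its edge. The control region between Dlk1 and Meg3, searched as 10 to 17 kb upstream of the Meg3 TSS, had peaks mainly in adult libraries with long lists. PS wild type 1 had 2 peaks (7.23 and 3.61), PS Scml2-KO 1 had 5 (up to 13, centred 12352 bp upstream), PS Scml2-KO 2 had 1 (4.35) and RS Scml2-KO 1 had 5 (3.41 to 4.16). At P7 the single peak was in Thy1 wild type 1 (3.01), and no cKit, RS wild type or RS Scml2-KO 2 library had any.

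Meg3, a noncoding RNA expressed from the mother's copy (chromosome 12, TSS at 109540996, plus strand), had promoter peaks in 6 P7 and 3 adult libraries. Thy1 stood at 9.65, 5.45, 8.66 and 3.97, and cKit had 5.34 in wild type 1 and 3.20 in Scml2-KO 1. The adult peaks were 4.13 and 9.36 in PS wild type 1 and Scml2-KO 1 and 14.0 in RS Scml2-KO 1. The value of 14.0 was from a peak 941 to 1298 bp downstream, and the peak over the start there stood at 12.5. In PS wild type 1 and Scml2-KO 1, peaks 1104 and 1004 bp downstream (8.78 and 16.1) began outside the window and were not counted. In the intron about 1.7 kb downstream of the Meg3 start, a region (109542719 to 109543210) was open in 7 P7 and 6 adult libraries, where its median fold enrichment was 6.39. Dlk1, a Notch family ligand expressed from the father's copy, had peaks in 8 P7 (3.67 to 7.84) and 5 adult libraries. They were 12.4, 10.1, 19.8 and 6.52 in PS and 7.57 in RS Scml2-KO 1, with no peak in the other RS libraries. Rian and Mirg, noncoding RNAs that host small nucleolar RNAs and microRNAs, had no promoter peak in any library.

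**Figure D5:**
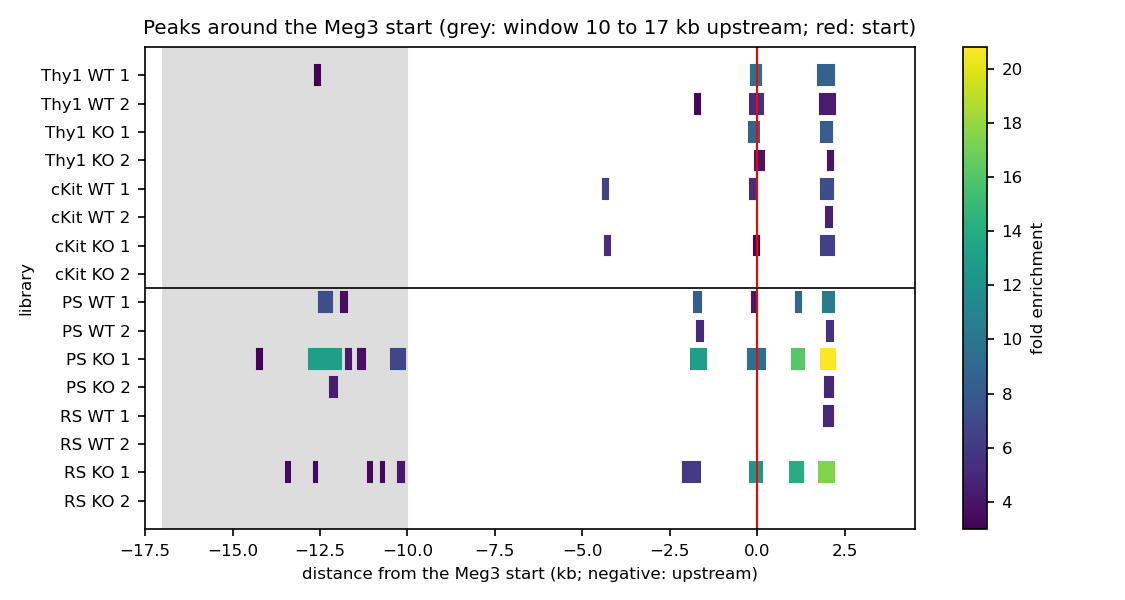
Peaks around the Meg3 start, drawn to scale by distance from the start (horizontal axis, kb) in each of the 16 libraries (rows), with colour for fold enrichment; grey shading marks the window 10 to 17 kb upstream. Peaks fall in the shaded window in Thy1 wild type 1, in 3 of 4 PS libraries and in RS Scml2-KO 1.

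Of the other imprinted loci, the Peg3 cluster on chromosome 7 stood among the strongest promoters at P7. Peg3, a zinc finger protein, and Usp29, a ubiquitin protease, start next to each other, so a peak there cannot be assigned to one of them. Their values were the same except in RS Scml2-KO 2, where the peak lay within 1 kb of the Peg3 start only. Peg3 stood at 37.4, 28.9, 34.1 and 20.7 in Thy1, 38.0, 15.9, 43.7 and 10.5 in cKit, 29.9, 13.1, 27.0 and 9.78 in PS, and 24.4, 9.77, 24.2 and 14.7 in RS. Zim1, another zinc finger gene, expressed from the mother's copy, ranged from 10.5 to 41.4 in P7 and from 8.15 to 39.2 in PS. In RS it had a peak in 2 of 4 libraries (9.97 and 7.95), both of them replicate 1. Peg10, a gene derived from a retrotransposon, and Sgce, a sarcoglycan, also share a promoter, which was open in all 16 libraries (3.67 to 15.6). Their neighbour Ppp1r9a, which encodes the actin-binding protein neurabin, stood at 24.3, 23.1, 23.9 and 13.6 in PS, beside 6.36 to 12.7 in Thy1 and 6.06 to 9.46 in RS.

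In the Gnas cluster on chromosome 2 the starts differed. Nespas, the antisense RNA, had peaks in all 16 libraries, at 50.6, 23.1, 51.5 and 13 in PS, beside 8.74 to 22.9 in P7 and 9.09 to 32.2 in RS. The start at 174330089 for the stimulatory G protein alpha subunit was also open in all 16 (5.20 to 21.7). The start at 174327914 was open in 8 P7 and 6 adult libraries, that at 174284320 in 6 and 4, and that at 174297859 in 2 and 3. At Grb10, an adaptor that restrains growth signalling, the major start (chromosome 11, 12037420, minus strand) was open in 8 P7 and 7 adult libraries. A second start at 12027971 had a peak in cKit wild type 1 (5.34) and in 4 adult libraries, at 17.6 and 21.8 in PS wild type 1 and Scml2-KO 1 and 4.88 and 20.4 in RS wild type 2 and Scml2-KO 1. Mest, a hydrolase family protein, showed a similar split of starts. The start at 30738050 on chromosome 6 was open in 7 P7 and 3 adult libraries, and that at 30733506 in 0 and 4, with values of 3.61 to 4.33.

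Igf2r, the receptor that clears IGF2, was open in all 16 libraries (4.72 to 18.2). Airn, the noncoding RNA that silences it on the father's copy, was open in 15, at 19.1, 12.6, 27.0 and 11.4 in PS beside 6.17 to 14.2 in P7 and 3.46 to 11.7 in RS. Slc22a3, a cation transporter of the same domain, had weak peaks in 5 P7 and 2 adult libraries (3.18 to 5.33). Plagl1, a zinc finger protein that regulates other imprinted genes, was open in all 16, from 7.87 to 24.0 in P7 and from 5.26 to 13.5 in adult cells. Impact, an inhibitor of the GCN2 kinase, was open in all 16 as well (9.96 to 36.7). Nnat, the membrane protein neuronatin, had peaks in 3 P7 and 3 adult libraries (3.57 to 7.28).

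Consecutive stages were compared with 4 libraries each, which allow an exact p of 0.0286 at the lowest, and no gene passed adjustment (lowest adjusted p = 0.0656 by Fisher's exact test, at cKit to PS). The unadjusted test called 51, 504 and 68 of all genes at the 3 steps. From cKit to PS, Magel2 went from 4 of 4 to 0 of 4 libraries, as did 1.31% of all genes, and Slc22a18 from 0 to 4, as did 1.05%. No imprinted gene separated Thy1 from cKit or PS from RS in this way, where 0.239% and 0% of all genes did from Thy1 to cKit (lost and gained) and 0.197% and 0.122% from PS to RS. Without cKit Scml2-KO 1 the cKit to PS count was 4 rather than 2, with H19 and Phlda2 added, and the count at Thy1 to cKit was 2 (Phlda2 and Slc22a3) and at PS to RS, without RS Scml2-KO 1, 2 (Phlda2 and Dlk1). The shares of all genes under these leave-one-out settings are not printed here, and fewer libraries make complete separation easier for any gene. These counts are therefore not read as a result about imprinted genes. In wild type alone, with 2 libraries per stage, 2.05%, 7.56% and 2.95% of all genes separated at the 3 steps.

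Between wild type and Scml2-KO, no imprinted gene was called by an exact permutation of genotype within stage. Of 811 genes able to reach 0.05, 0 passed adjustment and 1.73% passed unadjusted, and of the 34 imprinted genes 2 were among the 811. Kcnq1 and Meg3 each had peaks in 4 of 8 wild-type and 5 of 8 Scml2-KO libraries (exact permutation p = 1 for both). Within a stage, 2 against 2 libraries allow no p under 0.333. The only imprinted gene with a peak in both libraries of one genotype and neither of the other was Kcnq1 in Thy1, at 4.22 and 4.36 in wild type and none in Scml2-KO, a pattern of 0.782% of all genes. The reverse pattern in Thy1 was that of 0.0702% of all genes, with 0 imprinted genes. The other stages had 0 imprinted genes of either pattern, where the pattern with peaks in wild type only and that with peaks in Scml2-KO only were those of 0.122% and 0.112% of all genes in cKit, 0.857% and 0.66% in PS, and 0.398% and 2.29% in RS.

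Away from promoters, 826 merged regions carried the name of an imprinted gene in the authors' annotation, 464 of them open in a single library. Of 108 that could be tested, 48 (44.4%) were called higher in P7 and 10 (9.26%) in adult cells, beside 46.8% and 14.5% of all regions tested. The count in adult cells fell to 3 without PS wild type 1 or RS Scml2-KO 1, to 4 without PS Scml2-KO 1 and to 5 without PS wild type 2. The counts of all regions on leaving out these libraries are not printed here. Usp29 held the most, 13 of its 17 tested regions called higher in P7, all in introns of its long gene body. Airn had 6 of 8, Grb10 and Ppp1r9a 5 each, and Dlk1 4 of 11, while Kcnq1 had 4 of 8 called higher in adult cells and 0 in P7.

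The called regions with the highest median fold enrichment, 3 for each direction, lay at Ube3a, Usp29, Mirg and Kcnq1. Higher in P7 were an intergenic region named for Ube3a, 384 kb upstream of its start (chr7:58843819-58844833), an intron of Usp29 (chr7:6784346-6785347) and another of its introns (chr7:6813367-6814130). The Ube3a region ranged from 6.82 to 26.2 in the 8 P7 libraries and had no adult peak (adjusted p = 0.00402, Fisher's exact test). The former Usp29 region ranged from 6.82 to 18.1 with no adult peak (0.00402), and the latter from 5.56 to 19.7 with 1 adult peak, at 4.16 in PS Scml2-KO 1 (0.00877). Higher in adult cells were an intergenic region 84.2 kb upstream of Ube3a (chr7:59144042-59144523), an intron of Mirg (chr12:109737580-109740936) and a region over an exon and intron of Kcnq1 (chr7:143193707-143196272). The first of these was open in 7 adult libraries (9.09 to 21.6) and no P7 library, and was called (Fisher's exact test, adjusted p = 0.00877). The other two were each open in all 4 PS libraries and in RS Scml2-KO 1 and in no P7 library (adjusted p = 0.0418 each, Fisher's exact test). In PS the Mirg region stood at 18.6, 9.55, 22.9 and 8.69 and the Kcnq1 region at 21.2, 8.54, 29.1 and 9.24. Regions open in all 16 libraries numbered 2, an intron of Peg10 about 1.6 kb downstream of its start (chr6:4748933-4749642, median 15.5) and a region 2.8 kb upstream of Cdkn1c (chr7:143463887-143465699, median 7.43).

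Among 30 other imprinted genes, 7 were tested, of which 5 were called higher in P7 and 1 in adult cells, beside 24.8% and 8.48% of all genes tested. Higher in P7 were Asb4, a ubiquitin ligase subunit, Calcr, the calcitonin receptor, and Tfpi2, a protease inhibitor (7 and 1 libraries, adjusted p = 0.0304 each, Fisher's exact test), and the proteoglycan Dcn and the amino acid transporter Slc38a4 (6 and 0, 0.0246 each). Kcnk9, a potassium channel, was called higher in adult cells (0 and 6, 0.0246). Asb4, Calcr and Tfpi2 are neighbours of Peg10 on chromosome 6. Of 23 genes that write, protect or read imprints, 15 had a promoter peak in all 16 libraries, among them Dnmt1, Dnmt3a, Trim28, Zfp445 and Ctcf, and 0 of the 2 tested were called. Ctcfl, a testis paralogue of Ctcf, had peaks in 3 P7 and 7 adult libraries (adjusted p = 0.187, Fisher's exact test), and Zfp42 in 4 and 6 (adjusted p = 0.711, Fisher's exact test). Dnmt3l, the cofactor that helps set imprints, had a peak in 1 adult library and Tet1, an enzyme that removes methylation, in none.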

How the data were processed

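ATAC-seq peak lists of 16 mouse libraries were analysed, 8 from P7 spermatogonia and 8 from adult germ cells. Per the submitters' processing notes, the tools were Bowtie 1.1.1 and MACS2 2.1.0.20140616 and the build was mm10; the caller's options and cut-off are not stated in what was used here. Per the file headers, each list was called for its own library and gives a pileup (signal, the coverage at a summit), a fold enrichment (a ratio), −log10 p, −log10 q and a peak length in bp, all as deposited by the authors. Lines with the same peak were joined, 576 mitochondrial lines were left out, and no 2 lists were identical. Library depth is unknown, so no interval that needs read counts is given.

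TSS positions came from the authors' annotation (23588 positions, 21365 genes); 1170 genes named only together with another were matched by position to RefSeq (GRCm38.p6). Merging peaks that shared 1 bp or more gave 367750 regions. Presence of a peak was tested by two-sided Fisher's exact tests with Benjamini-Hochberg adjustment at 0.05 over all features open in 5 to 11 libraries. Stage steps, and P7 against adult cells in 1 genotype alone, were tested only for genes with a peak in 4 of 8 libraries. Genotype was tested by exact permutation within stage (Python 3.11.15, scipy 1.17.1, P7 and genotype tests checked on simulated data). Replicate numbers are those of the sample titles; all 16 file names carry other numbers. Same-numbered libraries deviated together between genotypes within each stage (correlations of 0.186 to 0.302 over 4 pairs of groups). Between stages the correlations ran from −0.0591 to 0.189 over 24 pairs. The highest were between stages of the same age: 0.189 for PS and RS Scml2-KO and 0.163 for Thy1 Scml2-KO and cKit wild type. The main test of P7 against adult cells treated libraries as independent. Fold enrichment served as a description only. All 34 genes are accounted for; called genes, and those within 2 libraries of complete separation, are given library by library, together with called members of the other lists and up to 3 regions per direction; a few more genes are given library by library after their values were seen. Alternatives were stricter peaks, equal list length, other windows and overlaps, 1 genotype, no filter, a replicate block and leaving out each library. The list of 34 names used no measured value, but the genes, lists and tests were chosen with earlier results of these data known.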

Additional observations from a re-analysis of the deposited data

Results flagged for a closer look

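In 37 groups of 8 values examined for a value far from the rest, 4 stood apart. By chance alone about 1 in 20 groups is set apart. In cKit Scml2-KO replicate 2, the shortest list, 50.0% of the 34 imprinted genes had a promoter peak, against 73.5% to 94.1% in the other P7 libraries. In the same library 61.1% of the paternally expressed genes did, against 94.4% to 100%. In RS Scml2-KO replicate 2, 55.6% of the paternally expressed genes had a promoter peak, against 72.2% to 83.3% in the other adult libraries. The Igf2r promoter peak of Thy1 wild type replicate 1 had a fold enrichment of 15.7, against 4.72 to 9.49 in the other P7 libraries.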

How the results depend on the processing

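Of 392 values under 26 alternative settings, 341 kept their direction and call or stayed close. A share counted as close if it lay within the SD of the main setting, which is a wide margin. Only the single-gene tests of Magel2, Ndn and Slc22a18 could be marked as reversed, and 0 were. Counts and shares could not be so marked. The order of P7 and adult shares of maternally expressed genes did turn in wild type alone and without any 1 of 7 libraries. For paternally expressed genes in adult cells the share was 58.3% with a −log10 q of 5 or more and 59.7% with a fold enrichment of 5 or more (all 34 genes 55.9% and 57.7%). Called regions numbered 28 and 4, and 31 and 4. Over all regions the calls numbered 11691 and 3813, and 13140 and 4173, beside 22616 and 7024 in the main setting. The stricter q gave 1 gene at Thy1 to cKit (Igf2) and 1 at cKit to PS, beside 57 and 584 of all genes. Equal list length gave 4 genes in P7 and 1 in adult cells, beside 1314 and 815 of all genes. It gave 4 at cKit to PS and 2 at PS to RS, beside 1109 and 324 of all genes (504 and 68 in the main setting). Regions numbered 9 and 5, beside 4422 and 3588 of all regions. Shares in P7 and adult cells were 52.9% and 50.0% (all 34), 67.4% and 50.0% (paternally expressed) and 36.7% and 50.0% (maternally expressed). All genes stood at 50.2% and 48.2%. Windows of 500 bp and 2 kb each added 1 gene in adult cells (Slc22a18), beside 341 and 324 of all genes called there. With 2 kb, Magel2 had peaks in 8 P7 and 2 adult libraries (adjusted p = 0.0263, Fisher's exact test). This left 1 gene at cKit to PS (Slc22a18), beside 492 of all genes. Wild type alone gave 1 gene in P7 (Magel2), beside 742 of all genes (3.47%). Ndn, with peaks in 5 wild-type and 3 Scml2-KO libraries, was not tested in either genotype alone. The steps in wild type alone gave 5, 5 and 3 genes, where 2.05%, 7.56% and 2.95% of all genes separated (0.239%, 2.36% and 0.318% with both genotypes). Scml2-KO alone gave 0 in P7, as for all genes: complete separation of 4 from 4 libraries, which Magel2 had, gave an adjusted p = 0.0838 (Fisher's exact test), so no gene could be called. Without the filter on libraries 1 gene (Magel2) was called higher in P7, beside 460 of all genes, and 0 in adult cells, beside 165. Ndn was not called (adjusted p = 0.141, Fisher's exact test). Regions called then numbered 2 and 0, printed without the counts of all regions. Peg12, tested under 4 settings, was called under 3 (adjusted p from 0.00132 to 0.00856, Fisher's exact test) and not without the filter (0.493).

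Leaving out each library gave 2 genes in P7 throughout (adjusted p 0.00160 to 0.00335 for Magel2 and 0.00538 to 0.0277 for Ndn, Fisher's exact test) and 0 to 1 in adult cells. It gave 0 to 2 genes at Thy1 to cKit, 2 to 4 at cKit to PS, 0 to 2 at PS to RS, 0 by genotype, and 37 to 57 and 3 to 12 regions. These counts of called genes, steps and regions are printed without those of all genes and regions, and fewer libraries ease separation for any gene. Shares ran from 78.6% to 84.9% and 69.3% to 73.95% (all), 91.3% to 96.8% and 73.0% to 77.0% (paternally expressed) and 64.3% to 71.4% and 65.2% to 70.5% (maternally expressed). With the replicate block the counts remained 2 in P7, 0 in adult cells and 0 by genotype, beside 1123, 433 and 0 of all genes. The adjusted p was 0.00934 for Magel2 and 0.0359 for Ndn by an exact test within replicate numbers. Unknown depth limits what a missing peak shows.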
